A study of Mus musculus with 2 samples.

Results

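The transcripts described here encode the platelet-derived growth factors (PDGF), their receptors, the angiopoietins and the KIT ligand: Pdgfra, Pdgfrb, Pdgfa, Pdgfb, Pdgfc, Pdgfd, Angpt1, Angpt2 and Kitl. They were chosen by gene symbol, and all 9 were found among the 19938 genes that the array data name. Each of the 9 was read by 1 transcript cluster, the array's unit of probes along a transcript, so the choice of the brightest cluster per gene did not arise for them. RNA came from tdTomato-positive cells sorted from mouse hearts at stage E14.5. One sample was Adam19-/-, the other Adam19+/+, and both carried Wnt1-Cre and R26tdTomato/+ on a C57BL/6 background. Adam19 encodes a membrane-bound metalloprotease. There was 1 array per genotype (Affymetrix Mouse Gene 1.0 ST), so no test across samples is possible and each difference is that of these 2 samples. How many embryos gave each sample was not stated in the sources used here.

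Wnt1-Cre is active in the neural crest, and the reporter therefore marks a lineage and not a cell type. This lineage is known to form vascular smooth muscle, outflow mesenchyme, neurons and glia in the heart, and in such a mixture fewer cells of a type and less RNA per cell cannot be told apart. As the labels write the genotypes, the Cre acts on the reporter, and no Cre-dependent Adam19 allele is named. Adam19 itself had a log2 signal of 9.77 in Adam19-/- cells, against 11.62 in Adam19+/+ cells, differing by -1.85 in the direction of the labels. The median log2 signal of all clusters was 7.52 in Adam19-/- and 7.49 in Adam19+/+ cells. None of the 9 genes lies on chromosome 11, the chromosome of Adam19.

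PDGF ligands act as dimers on the receptor tyrosine kinases PDGFRα and PDGFRβ. PDGF-A and PDGF-C signal mainly through PDGFRα, a receptor of mesenchyme and fibroblasts. PDGF-B and PDGF-D act on PDGFRβ, a receptor of pericytes and smooth muscle, the mural cells of vessels. These pairings are not exclusive. Endothelial cells release PDGF-B and thereby recruit mural cells, and mural cells release angiopoietin 1, which activates the endothelial receptor TIE2, encoded by Tek. Angiopoietin 2 can act as an antagonist of that receptor. The KIT ligand, or stem cell factor, signals to KIT on melanoblasts, mast cells and blood progenitors. Neural crest mesenchyme depends on PDGF receptors for the formation of the outflow tract and great arteries.

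The receptor genes differed between the genotypes to unequal extents. Pdgfra had a log2 signal of 12.11 in Adam19-/- cells, against 11.88 in Adam19+/+ cells, differing by 0.22 or 1.17-fold. Pdgfrb had a log2 signal of 12.37 in Adam19-/- cells and 12.40 in Adam19+/+ cells, differing by -0.03. The mesenchymal receptor was thus brighter on the Adam19-/- array, while the mural receptor was nearly level. The difference of Pdgfra exceeded that of Pdgfrb by 0.25 on the log2 scale. Both genes were bright: Pdgfra lay at percentile 97.7 of all genes in Adam19-/- cells, against 96.8 in Adam19+/+ cells, and Pdgfrb at percentile 98.4 in Adam19-/- cells, against 98.5 in Adam19+/+ cells. Signals of different clusters depend on their probes and share no scale, so these positions give no order of abundance between receptors and ligands.

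**Figure D1:**
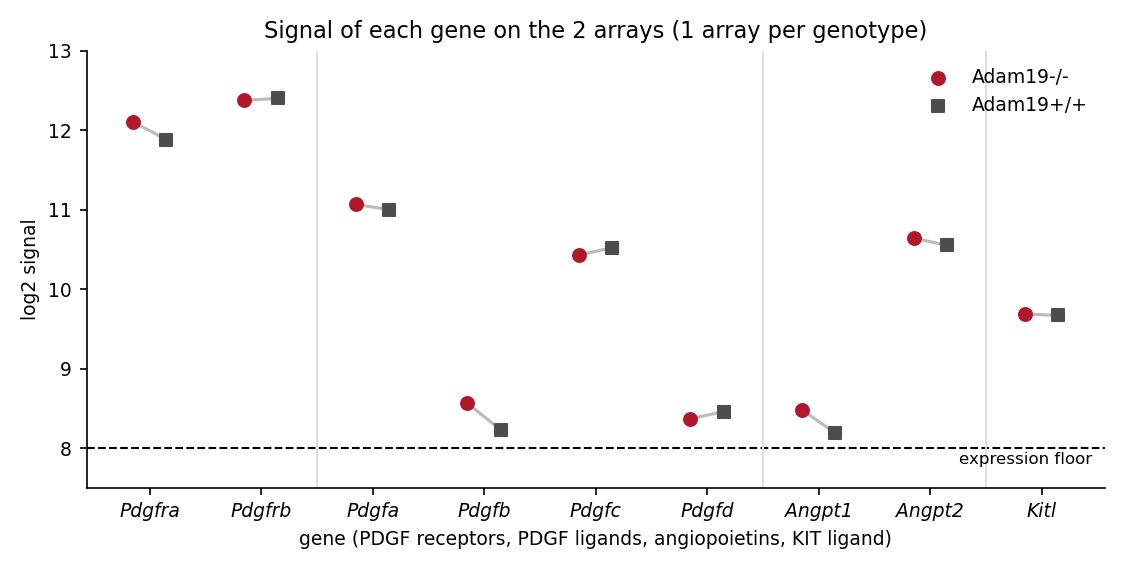
The vertical axis gives the log2 signal of the 9 genes, with the Adam19-/- array as circles on the left of each pair and the Adam19+/+ array as squares on the right (1 array each, hence no error bars). All values lie above the dashed expression floor of 8.01, and the steepest pairs are those of Pdgfb and Angpt1.

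Among the ligands, Pdgfb had the largest difference of the 9 genes. Its log2 signal was 8.56 in Adam19-/- cells, against 8.23 in Adam19+/+ cells, differing by 0.33 or 1.26-fold, which ranked 178th by increase among the 10122 genes above the expression floor. That floor, 8.01, is the median of the genes' mean signals and not a limit of detection. All 9 genes were above it on both arrays, and Pdgfb, Pdgfd and Angpt1 were the closest to it. Pdgfa, the other ligand of the classical pair, had a log2 signal of 11.07 in Adam19-/- cells and 11.00 in Adam19+/+ cells, differing by 0.07.

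The ligands that are secreted in latent form and cut free by proteases were slightly dimmer in the Adam19-/- sample. Pdgfc, which encodes a PDGFRα ligand, had log2 signals of 10.43 in Adam19-/- cells and 10.52 in Adam19+/+ cells. Pdgfd, which encodes a PDGFRβ ligand, had log2 signals of 8.37 in Adam19-/- cells and 8.46 in Adam19+/+ cells. Both differences were -0.09, or 1.07-fold and 1.06-fold lower. The ligands of each receptor therefore did not share a direction: on the array with the brighter Pdgfra, Pdgfa was slightly higher and Pdgfc lower, and of the PDGFRβ ligands Pdgfb was higher and Pdgfd lower.

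Angpt1, the TIE2 agonist, had the second largest difference. Its log2 signal was 8.48 in Adam19-/- cells, against 8.19 in Adam19+/+ cells, differing by 0.29 or 1.23-fold, ranked 279th by increase. Angpt2 had a log2 signal of 10.64 in Adam19-/- cells and 10.55 in Adam19+/+ cells, differing by 0.09, so the differences of the angiopoietins lay 0.20 apart. Tek, their receptor gene, had a log2 signal of 9.52 in Adam19-/- cells and 9.41 in Adam19+/+ cells, differing by 0.11. Tie1, which encodes the related orphan receptor, was under the floor, at 6.73 on both arrays.

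Kitl had nearly the same signal in both samples, 9.69 in Adam19-/- cells and 9.67 in Adam19+/+ cells, differing by 0.02. Its receptor gene Kit had a log2 signal of 9.43 in Adam19-/- cells and 9.32 in Adam19+/+ cells, differing by 0.12. Neither gene of the pair differed by 1.2-fold.

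In fold terms the differences of the 9 were small. None reached 1.5-fold or 2-fold, thresholds that 0.237% and 0.0395% of the genes above the floor reached in either direction. At 1.2-fold, a threshold near the edge of the central 95% of all differences (-0.20 to 0.30), 2 of the 9 were counted, Pdgfb and Angpt1, both higher. Of all genes above the floor, 5.19% reached 1.2-fold, 4.06% by being higher and 1.13% by being lower. Dim genes reached it more often: among the 5137 genes above the floor with a mean signal under 9.76, the 75th percentile, 6.15% were 1.2-fold higher, against 1.91% of the 4985 brighter genes. Pdgfb and Angpt1 are both among the dim genes. Pdgfb, at 0.33, and Angpt1, at 0.29, lay inside the central 95% of the dim genes, which ran from -0.22 to 0.34. Pdgfra, at 0.22 among the bright genes, lay inside their central 95%, which ran from -0.17 to 0.24.

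**Figure D2:**
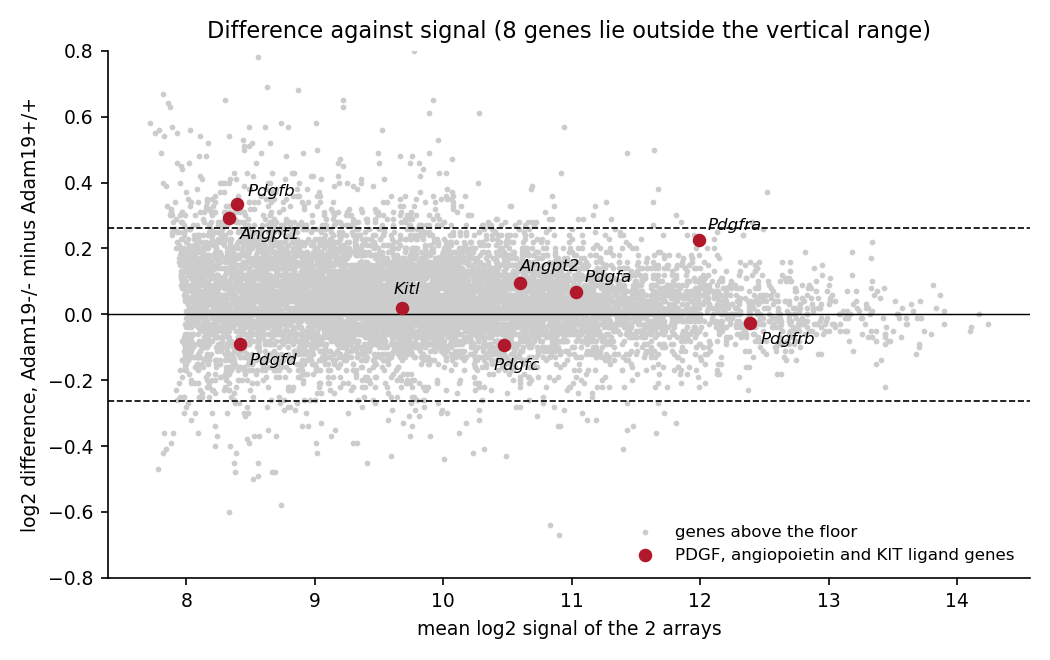
Each grey point is a gene above the floor, placed by its mean log2 signal over the 2 arrays (horizontal) and its log2 difference, Adam19-/- minus Adam19+/+ (vertical), with the 9 genes in red and dashed lines at 1.2-fold. Pdgfb at 0.33 and Angpt1 at 0.29 lie above the upper line at the dim end, and Pdgfra at 0.22 lies just under it at the bright end.

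By direction, 6 of the 9 genes were higher and 3 lower in Adam19-/- cells, with a median difference of 0.07. Among all genes above the floor, 65.2% were higher and the median was 0.04, so a positive difference near 0 can lie below the middle of all genes. Kitl, at 0.02, was below that median and turned negative, to between -0.03 and -0.02, when the differences were centred by median, by quantile normalisation or by a lowess curve, which left 5 genes higher and 4 lower. Pdgfb stayed between 0.28 and 0.33 under the settings tried for single genes, and Pdgfra between 0.18 and 0.22. Angpt1 ranged from 0.24 to 0.29 and was under 1.2-fold after each centring. The same centrings changed the split of all genes past 1.2-fold, of which 78.3% were higher in the values as deposited, against 62.9% after quantile normalisation, 57.6% after median centring and 53.1% after lowess centring.

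**Figure D3:**
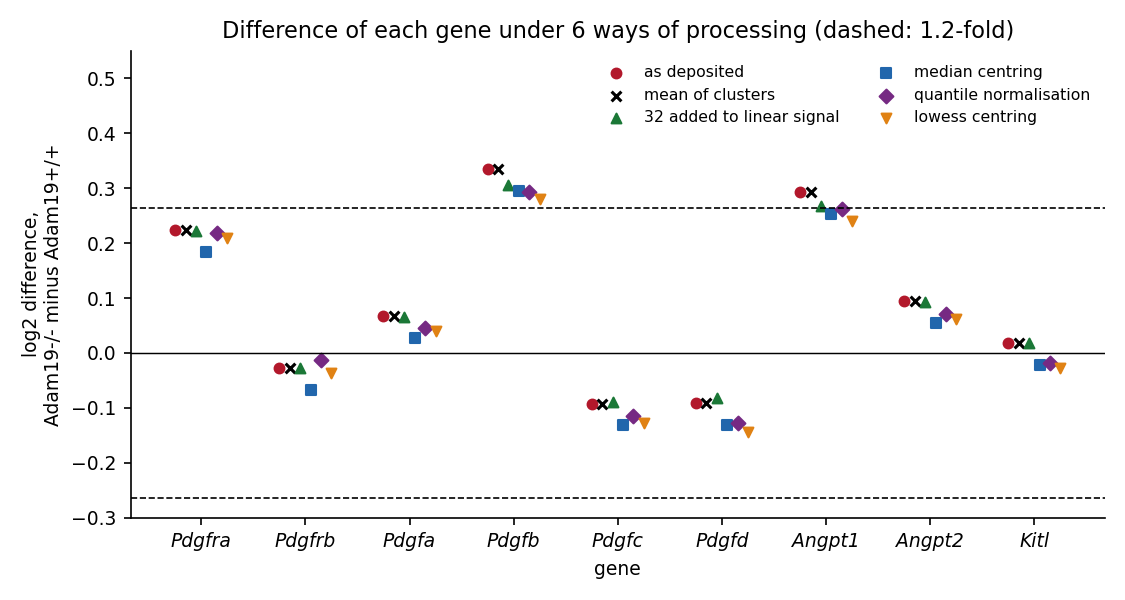
The vertical axis gives the log2 difference of each gene, Adam19-/- minus Adam19+/+, as deposited and under 5 other ways of processing, with dashed lines at 1.2-fold. Pdgfb stays above the upper line in all 6, Angpt1 crosses it after centring, and the points of Kitl lie on both sides of 0.

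A yardstick for the arrays' own scatter comes from genes read by more than 1 cluster. In 583 genes with at least 2 clusters above the floor, the differences given by the 2 brightest lay a median of 0.05 apart, with a 95th percentile of 0.24. The differences of Pdgfb and Angpt1 exceed this 95th percentile and those of the other 7 genes do not. Each gap, however, holds the scatter of 2 clusters, whereas the difference of each gene here comes from 1 cluster. The percentile is therefore too wide a bound for the difference of 1 gene. It does not show that Pdgfra, at 0.22, lies inside the scatter of 1 cluster, for which the SD was 0.077. A gap cancels any shift common to all clusters, such as the offset of 0.04, which a gene's own difference keeps. The 583 genes were also pooled over all signals above the floor, whereas Pdgfb and Angpt1 are dim. The yardstick therefore does not set these 2 genes apart from the scatter of dim genes. Such gaps hold no variation between embryos or sorts, which was not measured.

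Genes that act on PDGF ligands before or at the receptor were mostly dimmer in Adam19-/- cells. Of 10 measured, 8 were above the floor, 2 higher and 6 lower, and the list median was -0.08. Pcsk6, a proprotein convertase, had log2 signals of 8.68 in Adam19-/- cells and 8.90 in Adam19+/+ cells, differing by -0.22. Pdgfrl, which encodes a receptor-like protein, differed by -0.20 and the convertase gene Pcsk7 by -0.12. Plat, whose product tissue plasminogen activator cleaves latent PDGF-C, was one of the higher members, at 10.38 in Adam19-/- cells and 10.26 in Adam19+/+ cells. None of the 8 reached 1.2-fold.

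Adaptors and effectors downstream of the PDGF receptors followed the offset of all genes. Of 18 measured, 13 were higher and 5 lower, and the list median was 0.04, the same as over all genes above the floor, and none reached 1.2-fold. The adaptor genes Grb2, Shc1 and Crkl differed by 0.19, 0.15 and 0.13. Pik3r1, a regulatory subunit of phosphoinositide 3-kinase, differed by -0.12.

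In the list of Tie receptors, angiopoietin-like genes and Tie regulators, 7 of 10 measured genes were above the floor, 6 higher and 1 lower, and the list median was 0.04, or -0.01 after lowess centring. Ptprb, the endothelial phosphatase that restrains TIE2, had a log2 signal of 8.92 in Adam19-/- cells, against 8.39 in Adam19+/+ cells, and its difference of 0.52 was the one past 1.2-fold. The secreted angiopoietin-like factors differed both ways, with Angptl1 at 0.17 and Angptl7 at -0.22. Of KIT, the other class III receptor kinases and their ligands, Kit and Csf1 alone were above the floor. Csf1, the ligand of the macrophage receptor, was equal at 8.79 on both arrays. It is among 108 genes above the floor with equal values, and what made them equal was not tested.

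The related vascular endothelial growth factor genes also differed in both directions. Of 9 above the floor, 5 were higher and 4 lower, and the list median was 0.02, but -0.02 after each of the 3 centrings and -0.01 with the floor at the 75th percentile. Over the 8 genes above the floor on both arrays, 4 were higher and 4 lower and the median was -0.0061. Vegfc, a lymphatic growth factor, had a log2 signal of 8.18 in Adam19-/- cells, against 7.73 in Adam19+/+ cells, where it was under the floor. Its difference of 0.45 was the one past 1.2-fold. The receptor gene Kdr differed by 0.22, Vegfb by 0.12 and the placental growth factor gene Pgf by -0.21.

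**Figure D4:**
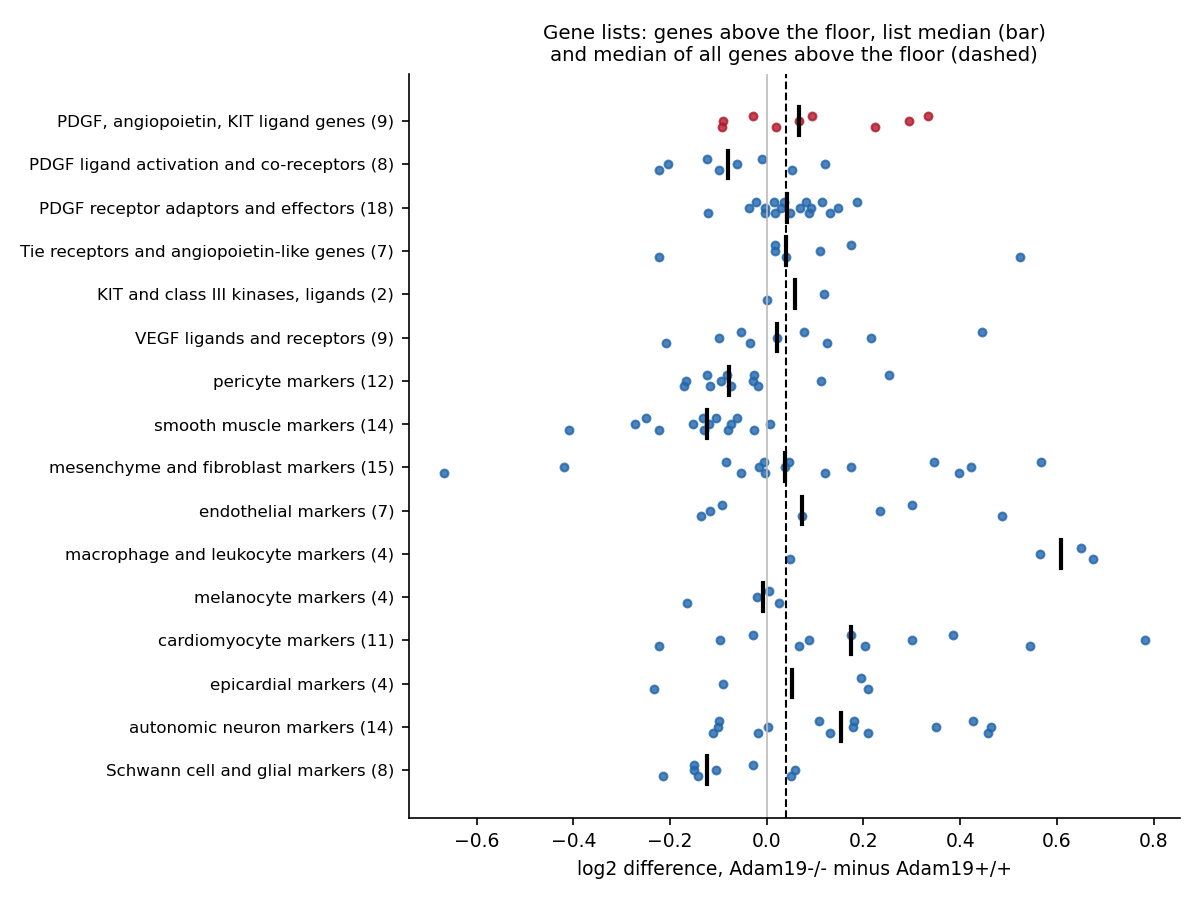
Each point is a gene above the floor, placed by its log2 difference, Adam19-/- minus Adam19+/+ (horizontal), in rows by gene list with the number of genes in brackets; bars are list medians and the dashed line is the median of all genes, 0.04. The 9 genes, in red, spread from -0.09 to 0.33, and the rows of pericyte and smooth muscle markers lie mostly left of 0.

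Markers of the cell types known for these receptors were read beside them. Mural markers were dimmer in Adam19-/- cells: of 12 pericyte markers above the floor, 2 were higher and 10 lower, and the list median was -0.08. Of 14 smooth muscle markers, 1 was higher and 13 lower, and the list median was -0.12. Abcc9 and Heyl, of the pericyte list, both differed by -0.17, and Ndufa4l2 by 0.25. Of the smooth muscle genes, the integrin gene Itga8 differed by -0.41, the potassium channel subunit gene Kcnmb1 by -0.27 and Lmod1 by -0.25. The summed linear signal of the pericyte list was 27537 in Adam19-/- and 28832 in Adam19+/+ cells. That of the smooth muscle list was 36950 in Adam19-/- and 40205 in Adam19+/+ cells. Such sums, here and below, add clusters that share no scale and are weighted to the brightest of them. They do not measure the amount of a cell type. Pdgfrb, at -0.03, thus differed less than the median of either mural list, and what part the mural cells had in its value was not tested.

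Markers of mesenchyme and fibroblasts, the cells known for Pdgfra, did not share its direction. Of 15 above the floor, 8 were higher and 7 lower, and the list median was 0.04, but -0.0013 after median centring and -0.01 with the higher floor. They ranged from Mfap5, a microfibril protein gene, at -0.67 to the transcription factor gene Tcf21 at 0.57, with Scx at 0.42. Their summed linear signal was 53099 in Adam19-/- and 53533 in Adam19+/+ cells. The part of these cells in the difference of Pdgfra was not tested.

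Cell types that release PDGF-B or carry Tek were measured beside Pdgfb and Angpt1. Counts here that include genes under the floor stand beside all 19938 genes, of which 51.7% were higher, with a median of 0.0061. Those of genes above the floor stand beside 65.2% higher and a median of 0.04. Of 13 endothelial markers, 8 were higher, 4 lower and 1 equal, and the list median was 0.13, and the 7 above the floor had a median of 0.07, or 0.15 over the 6 above it on both arrays. Nfatc1, an endocardial factor gene, differed by 0.49, Ramp2 by 0.30 and Plvap, which was under the floor on both arrays, by 0.33. The summed signal of the endothelial list was 6009 in Adam19-/- and 5736 in Adam19+/+ cells. All 5 measured platelet and megakaryocyte markers were under the floor, with Ppbp at 0.27, Pf4 at 0.13 and Itga2b at -0.08. Of 16 macrophage and leukocyte markers, 15 were higher and 1 equal, and the list median was 0.25, and their summed signal was 3188 in Adam19-/- and 2441 in Adam19+/+ cells. Laptm5, C1qb and Fcer1g led them at 0.68, 0.65 and 0.56, and 12 of the 16 were under the floor. C1qb and Fcer1g passed it on the Adam19-/- array alone, where they were higher, which leaves 2 of the 16 above it on both arrays. No marker has a value of 0 in these log2 data, and the part of these cells in the differences of Pdgfb and Angpt1 was not tested.

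Cells known to carry KIT gave the following values beside Kitl and Kit. All 6 mast cell markers were under the floor on both arrays, with Cpa3 at -0.41, Mcpt4 at 0.12 and Hdc at 0.03. Of the 6 melanocyte markers, 4 were above the floor, 2 of them higher and 2 lower, and their median was -0.0078. Over all 6 the median was -0.08, against 0.0061 over all genes without a floor. Tyrp1 differed by -0.33 and Tyr by -0.15, both under the floor, and Dct by -0.16.

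Other cells of the sort and of the heart were measured as well. Their counts stand beside all genes above the floor, of which 65.2% were higher, with a median of 0.04. Autonomic neuron markers were brighter in Adam19-/- cells in 10 of 14, with a median of 0.15 led by Gata2 at 0.46, Th at 0.46 and Dbh at 0.43. Schwann cell and glial markers were dimmer in 6 of 8 above the floor, with a median of -0.12 and with Dhh at -0.22, Fabp7 at -0.15 and Mbp at -0.15, and with the higher floor the median of the 5 genes left was -0.03. Cardiomyocyte markers were higher in 8 of 11 above the floor, with a median of 0.17 and with Myl7 at 0.78, Pln at 0.54 and Myh6 at 0.39. Myh6 passed the floor only in Adam19-/- cells, the 10 markers above it on both arrays had a median of 0.13, and with the higher floor a single gene was left at -0.10. Of 4 epicardial markers above the floor, with a median of 0.05, 1 passed it on the Adam19+/+ array alone, and the 3 above it on both arrays had a median of 0.20. Of all 11 the largest differences were those of Lrrn4 at 0.42, Krt18 at -0.23 and Upk1b at -0.22. Lrrn4 and Upk1b were under the floor on both arrays. The part of these other cells in the values of the 9 genes was not tested.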

How the data were processed

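The deposited table holds log2 signals for 28853 transcript clusters on 2 arrays. The authors' background correction, normalisation and probe summary are not given in these sources, and the log base was inferred from the range of values, 4.09 to 14.52. Names came from the 2016 platform annotation and a RefSeq gene table (GRCm38.p6). There were 21789 clusters with 1 symbol, 1621 with several and 5443 with no gene listed, and the last 2 kinds were left out. The brightest cluster stood for a gene. The floor was the median of the genes' mean signals, and 10122 genes had at least 1 array above it. With 1 array per genotype, no p-value, error or set test was computed, and the number of arrays limits the precision. Differences are log2 signals of Adam19-/- minus Adam19+/+, counted at 2-, 1.5- and 1.2-fold.

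The 9 genes and the 17 other lists were chosen with earlier results of these data known. Named were all 9 genes with Tek, Tie1 and Kit, the 4 largest absolute differences above the floor in each pathway list, the 3 largest in each marker list, and Adam19. Some list members are not analysed here. Alternatives were quantile normalisation, lowess centring (fraction 0.3), median centring, averaged clusters, 32 added to the linear signal, and other floors. The choice of cluster and the subtraction were checked on a copy of the data with known differences and no noise. That check did not cover the floor, the fold counts or the list medians. The work used pandas 2.3.3, numpy 2.4.6, matplotlib 3.10.9 and statsmodels 0.14.6 in Python 3.11.15.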

Additional observations from a re-analysis of the deposited data

How the results depend on the processing

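No paired analysis was possible because each genotype had 1 array. The count of the 9 genes past 1.5-fold, and past 2-fold, was 0 under all 8 alternatives, of which the requirement that a gene pass the floor on both arrays was chosen after seeing the data. The count past 1.2-fold was 2 as deposited, with averaged clusters, with 32 added to the linear signal, with no floor and with the floor on both arrays. It was 1 after quantile normalisation, 1 after median centring and 1 after lowess centring, each time Pdgfb. Median centring subtracts the offset of all genes, 0.04, and for the other centrings the cause was not tested. With the floor at the 75th percentile it was 0, since only 5 of the 9 genes passed it. Averaging clusters cannot change the 9 genes, each read by 1 cluster. Every difference of a single gene moved by less than 0.077, the SD of 1 cluster's difference from genes with 2 clusters, in all 45 comparisons with an alternative. For averaged clusters and median centring this was fixed in advance, since they give no change and a shift of 0.04. Of the 45 differences, 3 changed sign, those of Kitl after the 3 centrings. Of 126 list medians under alternatives, 117 moved by less than that SD, and 10 changed sign. That SD belongs to 1 cluster and is wide for a median of several genes, so the count is no measure of stability. Some of the 126 were also fixed in advance. Median centring shifts each list median by 0.04, and lists wholly above the floor do not change when the floor is dropped. The arrays give no variation between embryos, and the differences of dim genes such as Pdgfb, Pdgfd and Angpt1 are the least certain.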

Other observations

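Pdgfra has Kit and Kdr, other receptor tyrosine kinase genes, as its neighbours on chromosome 5, with no measured gene between them in the gene table. Their log2 differences, Adam19-/- minus Adam19+/+, were 0.22 for Pdgfra, 0.12 for Kit and 0.22 for Kdr. Pdgfrb lies next to Csf1r, the macrophage receptor gene, on chromosome 18. Here the differences were -0.03 for Pdgfrb and 0.36 for Csf1r, which was under the expression floor at 7.91 in Adam19-/- cells and 7.54 in Adam19+/+ cells. These neighbours were chosen after their values had been seen, and the values are a description of 2 arrays.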
